A study of Saccharomyces cerevisiae with 4 samples.

Results

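Chromatin binding of the nuclear pore protein Nup157p was set against that of its paralog Nup170p in Saccharomyces cerevisiae, in the 2 of 4 libraries of the study whose strains are labelled wild type. Members were taken by their titles: 1 library for Nup157 and 1 for Nup170, each hybridised 2 times to tiling arrays. The Nup157 strain, YWY953, is labelled MATa with the deletions his3∆1, leu2∆0 and ura3∆0, also lys2∆0, and carries NUP157-9xMYC::hphR. The Nup170 strain, YWY655, is labelled with the same mating type and markers and with NUP170-9xMYC::hphR. The remaining libraries, used here only beside the results, are Nup170-9xMYC in strains of the same markers labelled sir4∆::natR and yku70∆::natR. Each strain thus carries the 9 Myc copies on 1 pore protein, and no strain without the tag was analysed here. The labels give growth in YPD, a rich medium, at 30 °C up to an OD600 of 1, and fixation with 1% formaldehyde for 1 h. Chromatin was sheared to about 400 bp. DNA from anti-Myc ChIP carried Cy5 and was hybridised with Cy3-labelled extract DNA from its own strain. The 2 hybridisations repeat 1 library and are not replicate cultures, so no p-value is given and each value is shown for both.

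Nup157p and Nup170p are large scaffold nucleoporins of the pore's inner ring, descended from a duplicated gene. The inner ring joins the pore to its membrane and to the nucleoporins that line the channel. In budding yeast, pores also contact chromatin, both at active genes that move to the nuclear periphery and, for Nup170p, at silent regions near chromosome ends.

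The extract channel reads the DNA of each strain, and it went against the labels at several genes. LYS2, for an enzyme of lysine synthesis that both labels give as deleted, was near blank spots at 16 of 16 probes in the Nup157 strain and at 0 of 16 in the Nup170 strain, and likewise at 0 of 16 in both strains labelled as deletions. MET17, a methionine synthesis gene that no label gives as deleted, was near blank at 0 of 3 probes in the Nup157 strain and at 3 of 3 in every Nup170 strain. Near blank means an extract signal no higher than the mean of 660 blank spots plus 2.6 SDs. URA3 and LEU2 were near blank at 4 of 4 probes each in all strains, as labelled. HIS3, also labelled as deleted, was near blank at 1 of 2 probes in all strains. In the parent strains commonly used in yeast, a lys2 deletion goes with the MATalpha parent and a met17 deletion with the MATa parent. HMRA1, looked up after its values were seen, had an extract difference (Nup157 strain minus Nup170 strain) of -0.87 on the log2 scale, the lowest of 5448 genes. Its sequence lies at HMR and, in MATa cells, also at MAT. The mating type of the Nup157 strain was not tested by other means, so mating type and the identity of the tagged protein cannot be told apart at the genes they could both touch. The coding probes of the tagged genes NUP157 and NUP170 were above blank in all 4 strains, and so were the 15 of SIR4 and 7 of YKU70 in the strains labelled as deleted for them.

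The measure was the log2 ratio of ChIP over extract signal, centred on the median of each hybridisation. A gene value is the mean over its probes in the coding sequence or up to 500 bp upstream, averaged over both hybridisations. Differences are Nup157 minus Nup170. Over 5448 genes (not independent replicates), the hybridisations correlated at Pearson's r of 0.75 within Nup157 and 0.77 within Nup170. Between Nup157 and Nup170 it was 0.29 to 0.43 in the 4 pairings of hybridisations. Between the different Nup170 libraries it was 0.71 to 0.83 over 12 pairs. The Nup157 library had the wider spread, with an SD below the median of 0.50 for Nup157 and 0.22 for Nup170 over probes.

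Nup157 stood higher than Nup170 by more than 1.5-fold at 266 genes, or 4.88% of those compared, and lower at 113, or 2.07%. That balance turned to 150 higher and 180 lower when each library was divided by its own lower-side SD, and to 20 higher and 60 lower with ChIP signal over the mean extract of both strains. Both Nup157 hybridisations lay above both Nup170 hybridisations at 1825 genes (33.5%) and below both at 1648 (30.2%), so such a separation alone was common. Past 1.5-fold and without overlap were 266 genes higher (4.88%) and 111 lower (2.04%). Past 1.5-fold and outside all 6 Nup170 hybridisations of the study were 265 higher (4.86%) and 107 lower (1.96%). For scale, 185 genes (3.40%) differed by more than 1.5-fold between the hybridisations of Nup157 itself, and 7 (0.128%) between those of Nup170. The SD of gene differences was 0.31 between Nup157 and Nup170. It was 0.0995 between the Nup170 library labelled sir4∆ and Nup170 wild type, and 0.0815 for the library labelled yku70∆. Those comparisons passed 1.5-fold at 1 gene (0.0184%), in the library labelled sir4∆, and at none in that labelled yku70∆. Just past the threshold lay FBP1 and MTC2 at 0.59, and just short of it HIF1 and YIP5 at 0.58.

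**Figure D1:**
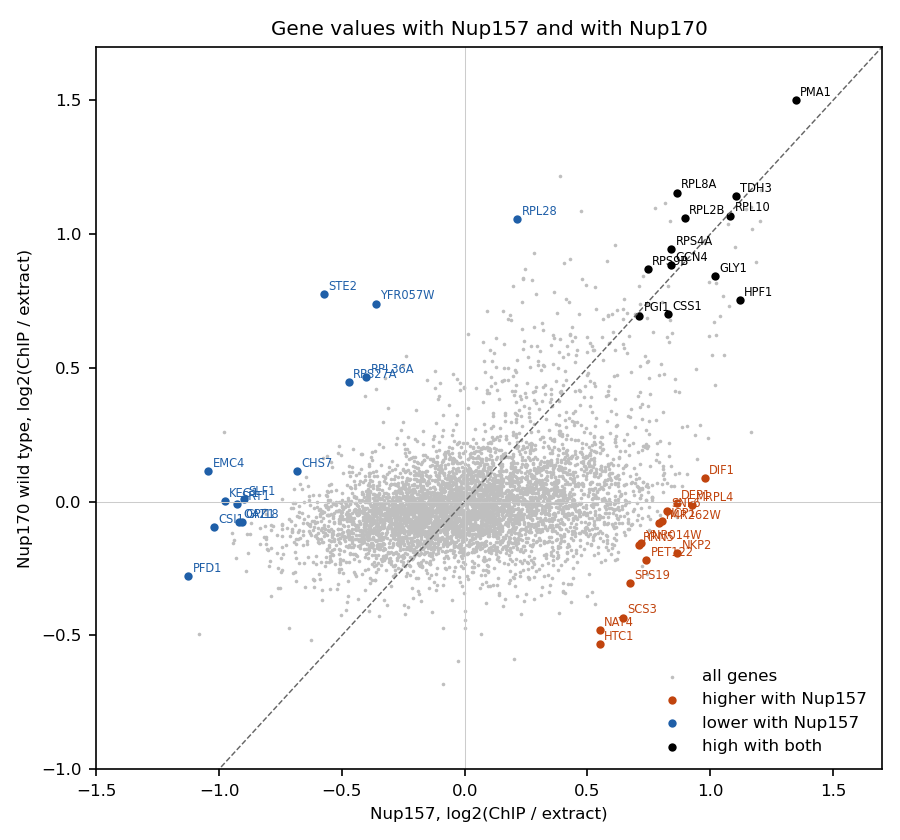
Gene values, log2(ChIP / extract), with Nup157 on the x axis and Nup170 wild type on the y axis, for 5448 genes, with the dashed line at equal values. Genes named in the text are coloured: those higher with Nup157 lie near or below 0 with Nup170, and those high with both, such as PMA1 and TDH3, lie near the line.

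The extract channel moved with these differences. Across genes the difference in ratio correlated with the ChIP channel difference at r = 0.97 and with the extract difference at r = -0.81, and the ChIP and extract differences correlated with each other at -0.65. The SD over genes was 0.24 for the ChIP channel difference and 0.0997 for the extract difference. The extract thus carried less of the spread, in the opposite direction. As an alternative chosen after seeing the data, ChIP signal was also taken over the mean extract of both strains. Past that and the values given beside single results, the part of the extract was not tested.

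The 14 genes named for being higher with Nup157 differed by 0.86 to 1.08. NKP2, for a subunit of the kinetochore's Ctf19 complex, had 0.82 and 0.91 with Nup157, against -0.26 and -0.13 with Nup170. The gene (YLR315W, chromosome 12, probes from 764525 to 765192) was above 0 in both Nup157 hybridisations and below 0 in both of Nup170, a difference of 1.06. NAT4 (YMR069W), which encodes the acetyltransferase of the N termini of histones H4 and H2A, had 0.47 and 0.63 with Nup157, against -0.53 and -0.43 with Nup170. SNF6, a subunit of the chromatin remodeller SWI/SNF, had 0.81 and 0.84 with Nup157 and -0.04 and -0.03 with Nup170. Repeat measurements of SNF6 lay close together in each library, and the difference of 0.86 was made of 0.44 in the ChIP channel and -0.43 in the extract. DEP1, of the Rpd3L histone deacetylase complex, differed by 0.87 and RRN5, of the upstream activating factor for ribosomal DNA transcription, also by 0.87.

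SCS3 (YGL126W, chromosome 7, 271225 to 272094), a lipid gene needed for inositol prototrophy, had 0.56 and 0.73 with Nup157, against -0.40 and -0.47 with Nup170, a difference of 1.08. SPS19, for a peroxisomal reductase of fatty acid breakdown, had 0.61 and 0.74 with Nup157 and -0.46 and -0.15 with Nup170. At both genes Nup170 was below its own genome median, while Nup157 was above its own. PET122, for an activator of mitochondrial COX3 translation, had 0.72 and 0.76 with Nup157 and -0.24 and -0.20 with Nup170. MRPL4, for a protein of the large mitochondrial ribosomal subunit, had 0.91 and 0.94 with Nup157, against 0.06 and -0.08 with Nup170. NCP1 (YHR042W, chromosome 8, 190230 to 192472), for the NADPH-cytochrome P450 reductase of sterol synthesis, was covered by 11 probes and differed by 0.88, with every probe above 0. DIF1, which aids nuclear import of ribonucleotide reductase, reached 0.86 and 1.09 with Nup157 and -0.02 and 0.19 with Nup170. HTC1 (YPL067C) had the highest difference of this set, with 0.73 and 0.37 with Nup157 and -0.59 and -0.47 with Nup170, a ratio of 2.12-fold. YMR262W and YNR014W completed the set of 14, each at 0.87.

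The genes with the greatest deficit with Nup157 were led by STE2 (YFL026W, chromosome 6, 82540 to 83756), the alpha-factor receptor of MATa cells. STE2 had -0.48 and -0.66 with Nup157, against 0.91 and 0.65 with Nup170, a difference of -1.35. It was thus enriched with Nup170 and depleted with Nup157, in hybridisations that did not overlap. Nup170 had 0.40 there in the library labelled sir4∆ and 0.68 in that labelled yku70∆. YFR057W is an open reading frame on the right of chromosome 6, its outermost probe ending 487 bp before the chromosome's last probe does. It had -0.20 and -0.52 with Nup157 and 0.77 and 0.71 with Nup170. Its Nup170 value was 0.19 in the library labelled sir4∆ and 0.39 in that labelled yku70∆. Ribosomal protein genes gave another 3: RPL28 had 0.01 and 0.42 with Nup157 and 1.39 and 0.72 with Nup170, RPL36A had -0.46 and -0.34 with Nup157 and 0.54 and 0.40 with Nup170, and RPS27A had -0.84 and -0.11 with Nup157 and 0.66 and 0.24 with Nup170. All of these were high with Nup170.

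The other 9 were near 0 or below it with Nup170 and lower with Nup157. EMC4, of the ER membrane protein complex, had -1.10 and -0.99 with Nup157, against -0.01 and 0.24 with Nup170, a difference of -1.16. KEG1, an ER membrane protein of cell wall glucan synthesis, had -1.32 and -0.63 with Nup157 and 0.10 and -0.10 with Nup170. Hybridisations of KEG1 did not overlap, but those of Nup157 lay further from each other than those of Nup170. SRT1, for a cis-prenyltransferase of dolichol synthesis, differed by -0.92, GPI18, for a mannosyltransferase of the GPI anchor, by -0.83, and CHS7, for the chaperone that releases chitin synthase from the ER, by -0.80. CSI1, of the COP9 signalosome, differed by -0.93, and SLF1, an RNA-binding protein, by -0.91. PFD1, for a prefoldin subunit, differed by -0.85 and OAZ1, for the ornithine decarboxylase antizyme, by -0.84.

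**Figure D2:**
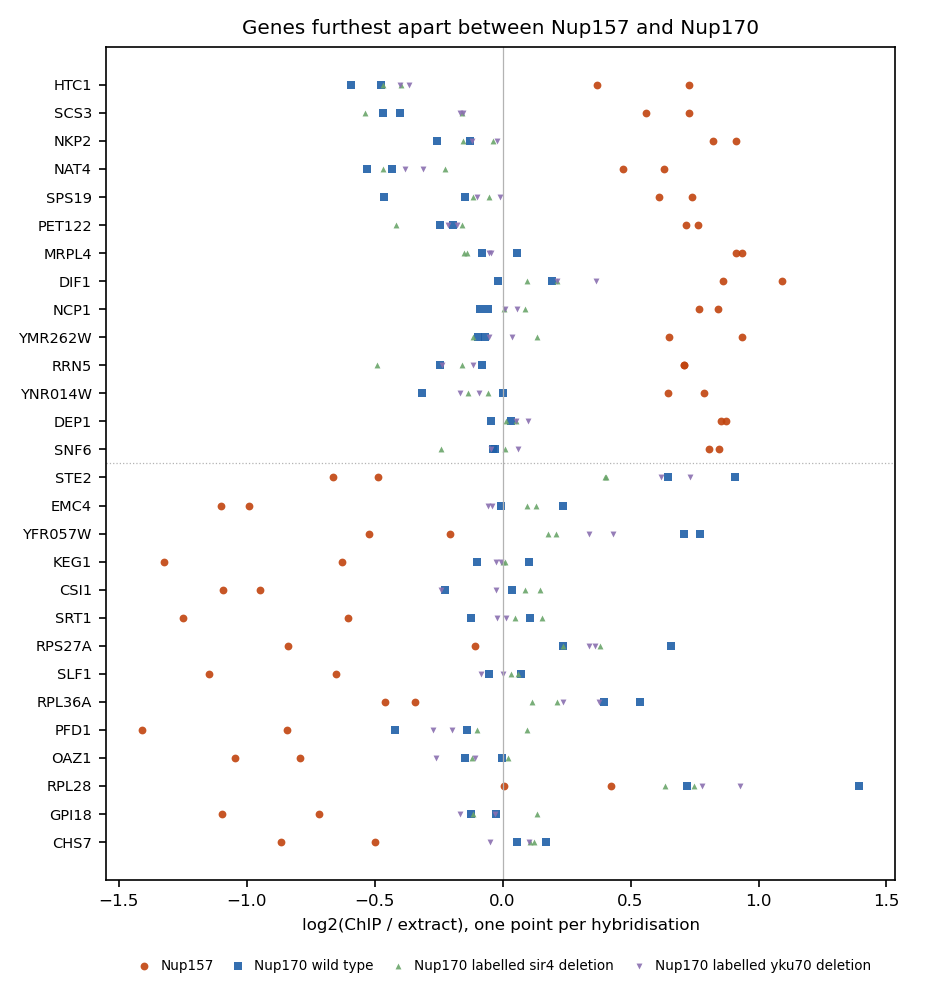
Values of log2(ChIP / extract) in single hybridisations for the 14 genes furthest above and the 14 furthest below Nup170 by the naming rule, with Nup157 as circles, Nup170 wild type as squares and the Nup170 libraries labelled sir4 and yku70 deletion as triangles. In all 28 genes the Nup157 points lie outside every Nup170 point. The naming rule required this for Nup170 wild type. Of all genes past 1.5-fold, 265 of 266 higher and 107 of 113 lower ones also lay outside every Nup170 hybridisation. The separation from the libraries labelled sir4 and yku70 deletion is thus no separate evidence for these genes.

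The members of both sets were chosen for their difference, and the values above describe them. Extract signal differed in the opposite direction in 14 of 14 genes higher with Nup157, by -0.49 to -0.24, and in 14 of 14 lower with it, by 0.00 to 0.28. The extract is a term of the difference that picked these genes, so the choice itself favoured opposite signs. The difference in the ChIP channel itself was past 1.5-fold at 9 of the 14 higher genes and at 14 of the 14 lower ones. Of the 28 genes, 11 were past 1.5-fold in each of the 11 other settings tried: HTC1, NKP2, SPS19, PET122, MRPL4, NCP1, YNR014W, STE2, EMC4, YFR057W and RPL36A.

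At other genes both proteins were high and their hybridisations overlapped. PMA1, the plasma membrane proton pump gene, had 1.10 and 1.60 with Nup157, against 1.82 and 1.18 with Nup170. TDH3, for glyceraldehyde-3-phosphate dehydrogenase, had 1.01 and 1.20 with Nup157 and 1.36 and 0.92 with Nup170. GCN4, for the transcription factor of amino acid starvation, had 0.74 and 0.95 with Nup157 and 1.05 and 0.71 with Nup170. In each of these the range of one library covered part of the other. RPL10 had 0.87 and 1.29 with Nup157 and 1.35 and 0.79 with Nup170, and RPL2B, RPS4A, RPS9B, RPL8A, GLY1 (threonine aldolase), PGI1 (phosphoglucose isomerase) and CSS1 overlapped likewise, with differences between -0.29 for RPL8A and 0.18 for GLY1. HPF1, for a cell wall mannoprotein, was the exception among the 12. Its values of 1.01 and 1.23 with Nup157 lay above 0.91 and 0.60 with Nup170, a difference of 0.36 that turned to -0.43 when each library was divided by its own lower-side SD.

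Gene groups were described by the count of members and the median, beside the same over all genes, where 2758 (50.6%) lay above 0, 2690 (49.4%) lay below it and the median difference was 0.0034. Glycolysis and fermentation genes were high with both proteins, at a median of 0.70 with Nup157 and 0.33 with Nup170 over 24 genes. Their median difference was 0.28, from 0.02 to 0.49 in the 4 pairings, and it turned to -0.12 under lower-side SD scaling. Hybridisations did not overlap at 12 of the 24, all higher with Nup157, beside 33.5% of all genes higher and 30.2% lower. One gene was past 1.5-fold, beside 4.88% of all genes. That was GLK1, for glucokinase, with 0.46 and 0.91 with Nup157, against -0.06 and -0.01 with Nup170. ENO1 (enolase) followed with 0.66 and 0.94 with Nup157 and 0.32 and 0.13 with Nup170, and HXK2 (hexokinase) with 0.63 and 0.85 with Nup157 and 0.41 and 0.13 with Nup170. PFK1, a phosphofructokinase subunit gene, was lowest at -0.17, with overlapping hybridisations.

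Genes of the citric acid cycle were moderately high with Nup157, at a median of 0.18 over 17 genes (0.0066 over all genes). With Nup170 they were near the level of all genes, at a median of -0.05 (-0.026 over all genes). Above 0 with Nup170 were 7 of the 17, beside 2256 of all 5448 genes. Their median difference of 0.26 was 0.15 with the intensity trend removed and 0.14 over the mean extract. Both Nup157 hybridisations were above both of Nup170 at 9 (52.9%) and below at 3 (17.6%), beside 33.5% and 30.2% of all genes. No gene was past 1.5-fold. MDH1 (malate dehydrogenase) had 0.45 and 0.50 with Nup157, against -0.18 and 0.03 with Nup170, and SDH1 (succinate dehydrogenase) had 0.17 and 0.53 with Nup157 and -0.12 and -0.07 with Nup170. CIT2, the peroxisomal citrate synthase gene, lay on the other side at -0.39. Mitochondrial carriers had a median difference of 0.22 over 23 genes, with 12 (52.2%) above and 6 (26.1%) below without overlap. It was 0.055 with the trend removed and 0.12 over the mean extract. Of these, AAC1, for the ADP/ATP carrier, had 0.60 and 0.54 with Nup157 and -0.26 and -0.18 with Nup170, and YEA6, for a NAD carrier, was lowest at -0.40. The respiratory chain and ATP synthase had a median difference of 0.13 over 29 genes, and 0.047 over the mean extract. They were mixed, with 13 (44.8%) above and 8 (27.6%) below without overlap, the latter near the 30.2% of all genes. QCR2, of the cytochrome bc1 complex, was highest at 0.52 and COX8, of cytochrome c oxidase, lowest at -0.79.

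Mitochondrial translation genes did not move as 1 group. Over 62 genes of the mitochondrial ribosome the median difference was 0.03, and -0.05 with ChIP taken over the mean extract. Past 1.5-fold were 7 of the 62, all higher with Nup157, beside 4.88% of all genes. Of all genes under 500 bp that share was 11.7%, and 6.62% from 500 to 1000 bp, and the list was not matched for length. The 7 included MRPL8, with 0.40 and 1.10 with Nup157, against -0.22 and 0.01 with Nup170. Another was MRPS12, with 0.65 and 0.78 with Nup157, against 0.13 and -0.18 with Nup170. MRP35 was lowest at -0.54, where the hybridisations overlapped. The translation activators had a median difference of -0.19 over 15 genes, and -0.016 with the trend removed. Of the 15, 4 (26.7%) were above and 9 (60%) below without overlap, beside 33.5% and 30.2% of all genes. PET122 was the highest of them at 0.96, while CBS1, for an activator of cytochrome b translation, had -0.25 and -0.87 with Nup157 and 0.21 and 0.14 with Nup170. PET111, for the COX2 activator, lay at -0.55.

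Amino acid synthesis genes had a median difference of 0.19 over 48 genes, which turned to -0.02 with the intensity trend removed. Without overlap, 25 (52.1%) were above and 8 (16.7%) below, beside 33.5% and 30.2% of all genes. ARG3, for ornithine carbamoyltransferase, had 0.17 and 0.23 with Nup157, against -0.85 and -0.32 with Nup170, so its difference of 0.79 came largely from depletion with Nup170. ILV6, the regulatory subunit gene of acetolactate synthase, differed by 0.62, and HIS5 was lowest at -0.58. Cell wall genes had a median difference of 0.15 over 34 genes, 0.015 with the trend removed and -0.13 under lower-side SD scaling. Of the 34, 18 (52.9%) were above and 5 (14.7%) below without overlap. TIR3, for a mannoprotein, was highest at 0.79 and FKS1, for glucan synthase, lowest at -0.36. Plasma membrane pumps and permeases had 0.10 over 30 genes, which turned to -0.0068 under quantile normalisation and -0.0092 under lower-side SD scaling, with FTR1 (iron permease) at 0.57 and PHO84 (phosphate transporter) at -0.30.

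Histone and HMG protein genes had a median of 0.40 with Nup157 and 0.15 with Nup170 over 11 genes, and a median difference of 0.18. That was 0.014 under quantile normalisation, 0.022 under lower-side SD scaling and 0.36 with second hybridisations alone. Hybridisations did not overlap at 6 of the 11 genes (54.5%), all higher with Nup157, beside 33.5% of all genes higher and 30.2% lower. HHO1, the linker histone gene, had 0.67 and 0.65 with Nup157, against -0.09 and 0.01 with Nup170, and NHP6A, for an HMG protein, had 0.70 and 0.73 with Nup157 and -0.04 and -0.13 with Nup170. Both were past 1.5-fold, beside 4.88% of all genes higher. NHP6B, its paralog, was the lowest of the group at -0.18, with overlap. The histone H3 genes lay on both sides of 0, with HHT1 at 0.52 and HHT2, where hybridisations overlapped, at -0.16. So did kinetochore genes, with NKP2 at 1.06 and SPC25, of the Ndc80 complex, at 0.96 but MHF2, where 1 of 4 probes was near blank, at -0.79.

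Genes of the cytosolic ribosome were high with both proteins and less so with Nup157, except when the second hybridisations alone were compared. The large subunit genes had a median of 0.31 with Nup157 and 0.57 with Nup170 over 79 genes, and the small subunit genes 0.40 with Nup157 and 0.61 with Nup170 over 52. Without overlap, 25 large (31.6%) and 20 small (38.5%) subunit genes were lower with Nup157, beside 30.2% of all genes. Higher were 5 (6.33%) and 1 (1.92%), beside 33.5% of all genes. The large subunit count on the lower side was thus near the share of all genes. The medians of the differences were -0.12 and -0.17, but they ranged across the 4 pairings from -0.38 to 0.08 and from -0.39 to 0.06. They were -0.67 and -0.69 under lower-side SD scaling, -0.35 and -0.38 under quantile normalisation and -0.35 and -0.37 with normexp. Past 1.5-fold lower with Nup157 were 3 of 79 large and 7 of 52 small subunit genes, beside 2.07% of all genes, such as RPS14B with 0.42 and 0.53 with Nup157, against 1.36 and 0.81 with Nup170. RPS15 stood apart, at 0.82 and 0.95 with Nup157 and 0.33 and 0.23 with Nup170, and the acidic stalk protein genes RPP2A and RPP2B were also higher, by 0.46 and 0.41. Paralogs such as RPL36A at -0.87 and RPL36B at 0.34 lay on opposite sides.

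**Figure D3:**
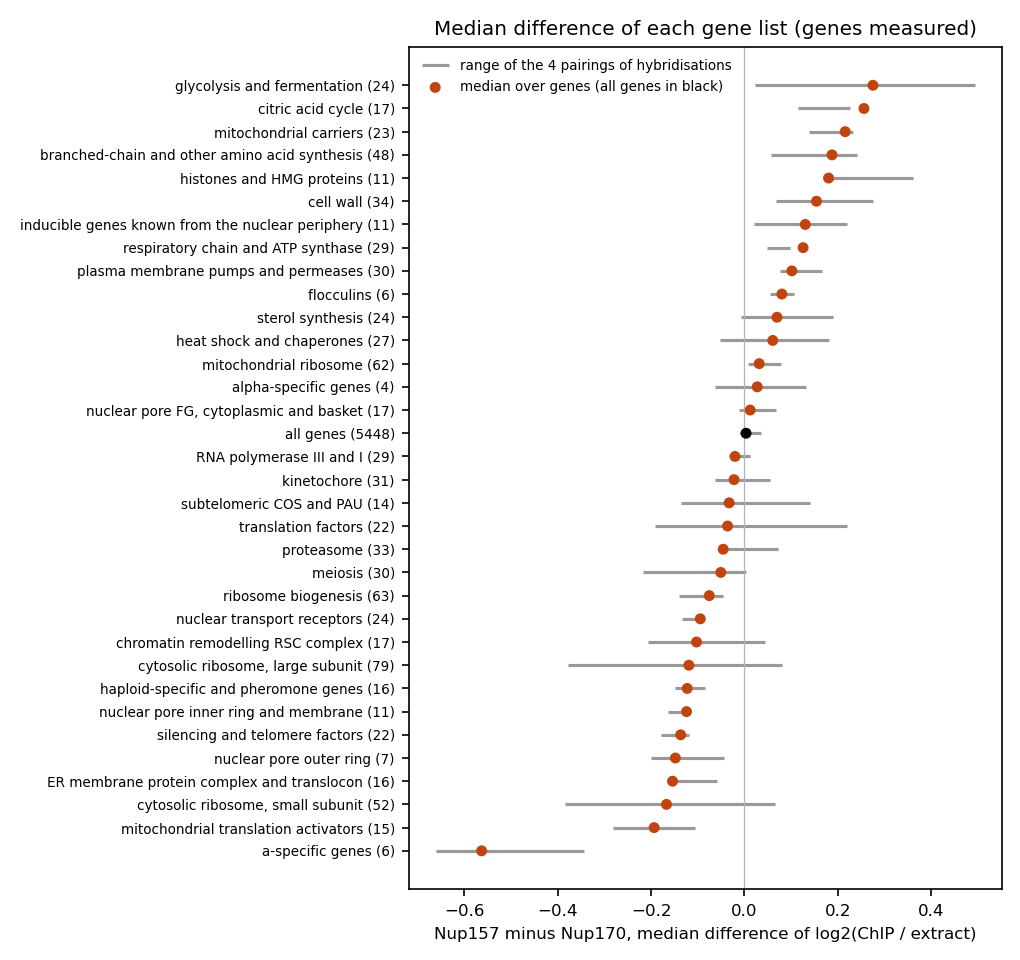
Median difference, Nup157 minus Nup170, of log2(ChIP / extract) for 33 gene lists and all genes, with genes measured in parentheses and grey bars for the range over the 4 pairings of single hybridisations, which need not contain the median of averaged values. Of the lists, 11 lie above 0 and 9 below 0 in every pairing, of which lower-side SD scaling turned glycolysis, cell wall, pumps and ER membrane complex, quantile normalisation the last 2 of these, trend removal amino acid synthesis, and ChIP over the mean extract the mitochondrial ribosome.

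Pore genes lay on both sides of 0. Of 11 inner ring and membrane genes, 6 (54.5%) were below and 2 (18.2%) above without overlap, beside 30.2% and 33.5% of all genes. None was past 1.5-fold. Their median difference was -0.12, and -0.059 with the intensity trend removed. All genes of at least 4000 bp had a median difference of -0.13, and the list was not matched for length. NUP192, the inner ring's large scaffold gene, had -0.21 and -0.39 with Nup157, against 0.02 and 0.11 with Nup170. NDC1, for a pore membrane protein, was highest, with 0.33 and 0.39 with Nup157 and -0.03 and 0.10 with Nup170. At the tagged genes, NUP157 had -0.10 and -0.13 with Nup157 and 0.03 and 0.02 with Nup170, and NUP170 had -0.16 and -0.14 with Nup157 and 0.10 and 0.08 with Nup170. In the outer ring the median difference was -0.15 over 7 genes, from SEC13 at 0.21 to NUP120 at -0.43. Among 17 genes listed for the pore's FG, cytoplasmic and basket parts, not all of them nucleoporins, 9 lay above 0 and 8 below. Their median difference was 0.01, from NSP1 at 0.33 to ULP1 at -0.48. Among genes known to move to the nuclear periphery on induction, 9 of 11 lay above 0, with a median difference of 0.13. The median was 0.0080 with the trend removed and 0.021 with first hybridisations alone. INO1 (inositol-phosphate synthase) had 0.48 and 0.51 with Nup157, against 0.04 and 0.13 with Nup170, GAL1 (galactokinase) had 0.27 and 0.47 with Nup157 and -0.01 and -0.03 with Nup170, and GAL7 was lowest at -0.20. Cells grew in rich medium, where the galactose genes are repressed.

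The a-specific genes, which only MATa cells express, were lower with Nup157 at 5 of 6 measured members without overlap, beside 30.2% of all genes. Of the 6, 3 were past 1.5-fold lower, beside 2.07% of all genes. Their median difference of -0.56 was -0.37 with the trend removed and -0.34 with second hybridisations alone. Besides STE2, MFA1 (a-factor) had -0.71 and -0.70 with Nup157, against -0.02 and -0.03 with Nup170, AGA2 (an agglutinin subunit) had -0.88 and -0.21 with Nup157 and 0.06 and 0.07 with Nup170, and STE6 (the a-factor exporter) had -0.30 and -0.25 with Nup157 and 0.32 and 0.15 with Nup170. BAR1, the alpha-factor protease gene, had 0.22 and 0.06 with Nup157 and 0.50 and 0.27 with Nup170, and ASG7 overlapped at 0.09. The 4 alpha-specific genes had a median difference of 0.03, from MF(ALPHA)1 at -0.18 to MF(ALPHA)2 at 0.26. Mating type and tagged protein cannot be told apart here, given the strain DNA described above. Haploid-specific and pheromone pathway genes had a median of -0.12 over 16 genes, with RME1 at 0.36 and STE18, for the G protein gamma subunit, at -0.70. Silencing and telomere factor genes had -0.14 over 22 (-0.075 with the trend removed). Without overlap, 4 (18.2%) were above and 12 (54.5%) below, beside 33.5% and 30.2% of all genes. EST2 (telomerase) had -0.63 and -0.73 with Nup157 and -0.15 and -0.08 with Nup170.

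Among the remaining lists, ER membrane complex and translocon genes split, from SEC62 at 0.60 and SEC61 at 0.47 to EMC2 at -0.77 and EMC4 at -1.16. Their median of -0.15 over 16 genes turned to 0.02 under quantile normalisation and 0.04 under lower-side SD scaling. Ribosome biogenesis had -0.08 over 63 genes, with GAR1 at 0.65 and UTP9 at -0.72 at its ends. Translation factors, at a median of 0.37 with Nup157 and 0.13 with Nup170, had a median difference of -0.04 over 22 genes that changed sign between pairings, with SUI1 at 0.77 and HYP2 (eIF5A) at -0.42.

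Stretches of neighbouring probes showed where the libraries parted. Runs of at least 4 consecutive probes past 1.5-fold without overlap, a rule made after gene values had been seen, numbered 117 higher and 81 lower with Nup157. Of single probes, 10.9% were past 1.5-fold higher and 12.9% lower. The longest higher run had 11 probes over ECM30, DIF1 and CAR2 (chromosome 12, 1010901 to 1013561), with means of 0.63 and 0.88 with Nup157, against -0.01 and -0.01 with Nup170. The longest lower run covered HML, a silent mating locus (chromosome 3, 11184 to 15899, 10 probes). Its means were -0.16 and -0.01 with Nup157, against 1.19 and 0.88 with Nup170. A run at HMR, the other silent mating locus (chromosome 3, 291024 to 293762, 9 probes), had -0.73 and -0.71 with Nup157 and 0.74 and 0.49 with Nup170. As means over each run, Nup170 was enriched and Nup157 was near or below its median. At HMR, Nup170 was near 0 at the probes -1340 bp (-0.19 and -0.03) and -1142.5 bp (-0.02 and 0.03) from the centre. No probe of the HML run lay between -2042 and 475 bp. In the 3 kb left of the HMR run, means were -0.63 with Nup157 and -0.06 with Nup170. In the 3 kb right of it they were -0.20 with Nup157 and 0.58 with Nup170. Another run ended at the last probe of chromosome 6 (268069 to 269826, 8 probes, YFR057W), with -0.28 and -0.20 with Nup157 and 0.93 and 0.79 with Nup170. In the Nup170 libraries labelled sir4∆ and yku70∆, the means were 0.47 and 0.69 at HML, 0.25 and 0.34 at HMR, and 0.33 and 0.54 at the chromosome 6 end. HML and HMR share sequence with MAT, so the strain caveat given for the a-specific genes holds for them.

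**Figure D4:**
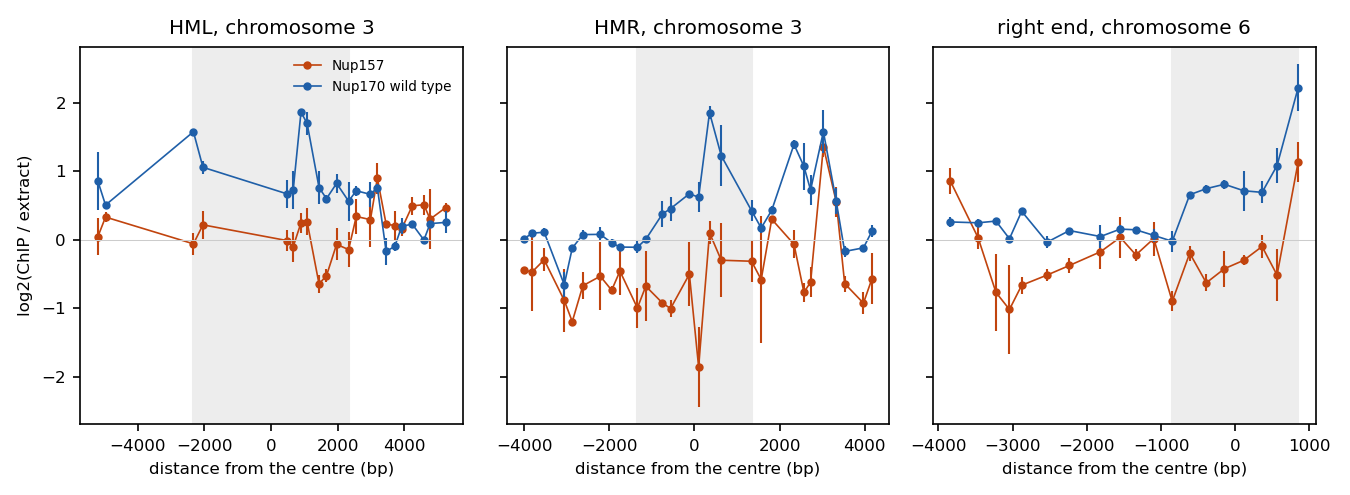
Probe values, log2(ChIP / extract), against distance in bp from the centre of the runs at HML, HMR and the right end of chromosome 6, for Nup157 and Nup170 wild type, with vertical lines spanning the 2 hybridisations. Within the shaded runs the Nup170 points lie above the Nup157 points at every probe, as the rule that picked the runs requires.

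Distance from an end was counted from the first or last probe of each chromosome, which can lie well inside it. On chromosome 9, CSS1, with probes from 23711, was thus counted as 4096 bp from the end. Over the outermost 5 kb so counted, the median was -0.06 with Nup157 and 0.20 with Nup170. There the difference was below 0 in 29 of 32 arms, of which the left and right arms of chromosome 12 rest on 1 probe each. For probes more than 50 kb from an end the difference was below 0 in 20 of 32 arms. In the ChIP channel the median difference was -0.18 and in the extract channel 0.14. From 5 to 10 kb the medians were -0.21 with Nup157 and -0.01 with Nup170. The difference was -0.13 from 10 to 15 kb, -0.0086 from 15 to 20 kb, -0.02 from 20 to 25 kb and -0.15 from 25 to 30 kb, where it was below 0 in 21 of 32 arms. Chromosome arms differed widely. The outermost 5 kb of probes on the left of chromosome 7 had -0.39 with Nup157 and 0.63 with Nup170. Those on the left of chromosome 9, which lie inside its true end, had 0.68 with Nup157 and 0.54 with Nup170.

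Position relative to genes also differed. Probes the files annotate as downstream of genes had a median of -0.19 with Nup157 and 0.10 with Nup170 over 1617 probes, a difference of -0.33 that shrank to -0.04 with the intensity trend removed and to -0.10 with normexp background correction. Of them, 29.6% were past 1.5-fold lower, against 12.9% of all probes. In divergent promoters the medians were -0.05 with Nup157 and -0.13 with Nup170, a difference of 0.05 that turned to -0.03 with ChIP over the mean extract. Both proteins were lowest in the bin that starts at -250 bp from the coding sequence, at -0.14 with Nup157 and -0.19 with Nup170. From 10% to 20% of the gene length Nup157 was at 0.06 and Nup170 at -0.01, and in the last 10% Nup157 was at -0.06 and Nup170 at 0.02. Long genes were lower with Nup157, with a median difference of -0.13 over 180 genes of at least 4000 bp, against 0.05 over 506 genes under 500 bp. The extract difference ran the other way along that series, at 0.06 for the longest genes and -0.06 for the shortest. Past 1.5-fold were 11.7% higher and 5.14% lower of genes under 500 bp, and none of those of at least 4000 bp. The gene groups above were set beside all genes, not beside genes of like length.

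**Figure D5:**
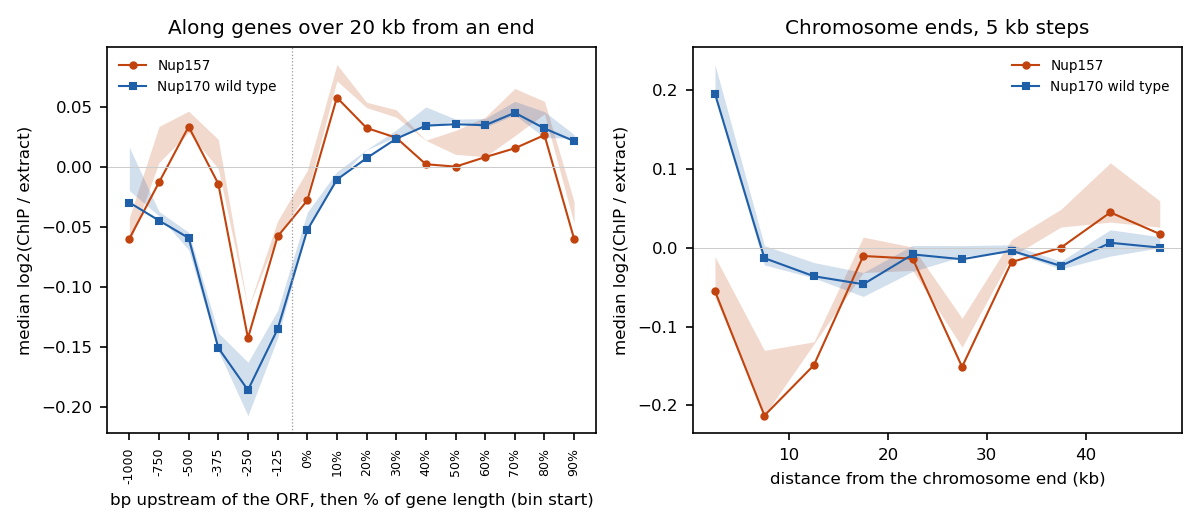
Median log2(ChIP / extract) with Nup157 and Nup170 wild type, along genes more than 20 kb from an end (left) and in 5 kb steps from an end (right). Bins on the left are upstream in bp and then in percent of gene length. An end here is the first or last probe of a chromosome. Bands span the medians of the 2 single hybridisations and need not contain the median of averaged values, and Nup157 is lower at the last bin of genes (-0.06 with Nup157, 0.02 with Nup170) and over the outermost 5 kb (-0.06 with Nup157, 0.20 with Nup170).

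Of the 2070 probes in the top 5% of each library, 651 were shared, which is 31.4% of each list (95% exact binomial interval 29.5% to 33.5%, covering counting only). In lists from single hybridisations, Nup157 shared 23.4% to 31.5% with Nup170 over the 4 pairings, 34.7% with its own repeat, and Nup170 shared 64.4% with its own. Nup170 wild type shared 68.2% with the library labelled sir4∆ and 77.5% with that labelled yku70∆. The low repeatability of the top probes of Nup157 limits how far sharing can be read from these lists. In the authors' deposited table, 2145 nuclear probes were marked as bound regions with Nup157 and 2233 with Nup170, and 558 were marked with both, 26.0% of the Nup157 marks and 25.0% of the Nup170 marks. By the authors' deposited table, probes of cytosolic ribosomal protein genes made up 20.6% of those marked with both, 0.189% of those marked with Nup157 only, 22.6% of those marked with Nup170 only and 0.357% of those marked with neither.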

How the data were processed

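ChIP-chip values of 2 libraries (Nup157 and Nup170, labelled wild type) were used, with the 2 other Nup170 libraries beside them. The deposited intensity columns give foreground and background of both channels, made with Agilent Feature Extraction per the submitters' processing notes, version not stated. The authors also deposited normalised intensities and log2 ratios of ChIP over whole cell extract. The deposited marks of another kind (other) flag spots to exclude and bound regions. No build of the genome is named in the labels or file headers, so positions are those of the files.

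Of 41480 nuclear probes, 41409 were used for Nup157 and 41423 for Nup170 (41395 in both), and 295 mitochondrial probes were left out. The log2 ratio of normalised signals was centred on each hybridisation's median and averaged over both. Of 5659 annotated genes, 5448 had at least 2 probes and a value, and RefSeq names matched 5436. HIS3, LEU2, URA3, LYS2 and MET17 were left out. With 1 library a group no test was run, called means past 1.5-fold, and the number of arrays limits precision.

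Genes were named by rule: the 14 highest and 14 lowest differences, and the 12 highest minima over the 4 hybridisations, with at least 3 probes, none near blank, for the first 2 sets all probes on one side of 0 in the difference and no overlap, for the third all probes above 0 with both proteins, and no probes in common with genes named before, plus the highest and lowest member of each list, mating type markers and tagged genes. Further list members, HMRA1 and the runs were picked after their values were seen. Members and lists were chosen with earlier results of these data known. Python 3.11.15 with pandas 2.3.3, numpy 2.4.6, scipy 1.17.1 and statsmodels 0.14.6 was used, with limma 3.58.1 in R 4.3.3 for normexp (offset 50). The scripts were tested on simulated data.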

Additional observations from a re-analysis of the deposited data

How the results depend on the processing

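No paired analysis was possible because each group held 1 library. Of the 90 recomputed values of the main comparisons, 58 stayed close to the reported value and 32 moved. The 266 genes past 1.5-fold higher with Nup157 became 415 with the second hybridisations alone, 604 with normexp, 78 with the intensity trend removed, 150 with lower-side SD scaling, 161 with at least 4 probes and 20 with ChIP over the mean extract of both strains, a setting chosen after seeing the data. The 113 lower became 249 with the first hybridisations alone, 196 with Nup157 first and Nup170 second, 181 with normexp, 24 with the trend removed, 64 with quantile normalisation, 180 with SD scaling, 70 with at least 4 probes and 60 over the mean extract. Genes without overlap fell to 654 higher and 522 lower with upstream probes only, where fewer genes have enough probes. The correlation of 0.41 was 0.34 with second hybridisations, 0.29 with Nup157 first and Nup170 second, 0.51 with normexp, 0.35 with the trend removed and 0.63 over the mean extract. The difference of -0.39 over the outermost 5 kb was -0.30 and -0.35 in those pairings, -0.23 with normexp, -0.25 with the trend removed, -0.46 with SD scaling, -0.27 over 10 kb and -0.20 over the mean extract. The shared 31.4% of the top 5% was 23.4% with first hybridisations, 23.9% with Nup157 first and Nup170 second, 45.2% in the top 1% and 42.1% over the mean extract. Medians changed sign for 6 of the 20 lists that had 1 sign in all 4 pairings. With SD scaling, glycolysis gave -0.12, cell wall -0.13, pumps and permeases -0.0092 and the ER list 0.038, and with quantile normalisation pumps gave -0.0068 and the ER list 0.024. Amino acid synthesis gave -0.016 with the trend removed, and the mitochondrial ribosome -0.048 over the mean extract. Promoter probes, at -0.077, gave 0.063 with the trend removed, 0.016 with quantile normalisation and 0.0084 with SD scaling, and divergent promoters gave -0.031 over the mean extract. HPF1 gave -0.43 with SD scaling. Of the 28 genes furthest apart, 18 stayed past 1.5-fold with the trend removed and 22 over the mean extract. The cause of these changes was not tested.

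The comparison rests on 1 culture of each strain. Strain, tag and array cannot be told apart, and no strain without the tag was analysed here, so signal common to both libraries has no background to be read against. The Nup157 strain differs from the Nup170 strain at LYS2 and MET17, against the labels. Repeat hybridisations bound the array error only, and that error was larger for Nup157.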
